A study of Mus musculus with 7 samples.

Results

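Receptor-interacting kinases and the pseudokinase Mlkl were described in brown adipose tissue: Ripk1, Ripk2, Ripk3, Ripk4 and Mlkl, 5 of the 55487 genes in the deposited count table, taken by gene name. The set was chosen by measured values of the comparison below, in which Ripk4 stood among the genes that differed most, and the other 4 were added as its relatives and as the substrate of Ripk3. Their values in the 2 groups are therefore given as a description, without a test. RNA was sequenced from brown adipose tissue, the fat depot that burns fuel for heat, of 7 mice of the NOD/ShiLtJ genotype, an inbred strain that develops autoimmune diabetes. One group of 4 mice was given CB-100, the fraction above 100 kDa of buffer conditioned by brown adipocytes, and the other group of 3 mice was sham treated with KRBH buffer. CB-100 was given under the skin at 1.5 mg per kg of body weight for 7 days to mice with a blood glucose of 190 to 230 mg/dL, and the tissue was taken 2 to 8 weeks after injection. The labels attach the same protocol text to the sham samples, give no schedule for the buffer, no age, and no week of collection for each mouse. All CB-100 titles bear the letters nd and all sham titles the letter d. These codes are not spelled out, and what they mark cannot be told apart from the injection.

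The receptor-interacting kinases are serine/threonine kinases that share a related kinase domain and differ in what follows it. Ripk1 is recruited to the tumour necrosis factor (TNF) receptor, where it acts as a scaffold for NF-kappaB signalling, and it can also form complexes that lead to apoptosis through caspase-8 or to necroptosis. Ripk3, bound by Ripk1 or Zbp1 through a short interaction motif, phosphorylates the pseudokinase Mlkl, which then breaches the plasma membrane: this is necroptosis. Ripk2 relays signals from the bacterial peptidoglycan sensors Nod1 and Nod2. Ripk4 carries ankyrin repeats and is known for its need in the differentiation of keratinocytes and other surface epithelia.

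The libraries held 10815101 to 28528471 counts, the most in CB-100 replicate 4, and scaling factors by the trimmed mean of M-values (TMM) ran from 0.755 in that library to 1.25 in sham replicate 1. CB-100 replicate 4 also had the highest summed endothelial and epithelial markers of the 7 libraries, so several values that rest on it, though not all, are given with and without it. By Xist and Y-linked counts, replicate 3 of each group was male and the other 5 mice were female. Levels are given in CPM, counts scaled to a common library size after TMM. Of 16823 genes tested with edgeR's quasi-likelihood test, 3.70% passed a Benjamini-Hochberg (BH) adjusted p of 0.05, 2.28% lower and 1.42% higher in CB-100. The median log2 change over all tested genes was 0.03. The CPM of the 4 CB-100 and 3 sham libraries did not overlap for 23.3% of tested genes. Of the 5 genes described, 1 passed and did not overlap between the groups, and it was Ripk4. That count follows from how the genes were chosen and nothing is read from it. Nothing but the animal codes in the titles says that the replicates are separate mice, so error estimates measure the spread between these samples.

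Ripk4 was present at several-fold lower levels in each CB-100 library than in any sham library, while Ripk1 and Ripk2 stood at close levels in both groups. Ripk3 and Mlkl, the kinase and the executor of necroptosis, were present at low levels, each with its highest value in CB-100 replicate 4. The plot of CPM by library shows these 3 patterns.

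**Figure D1:**
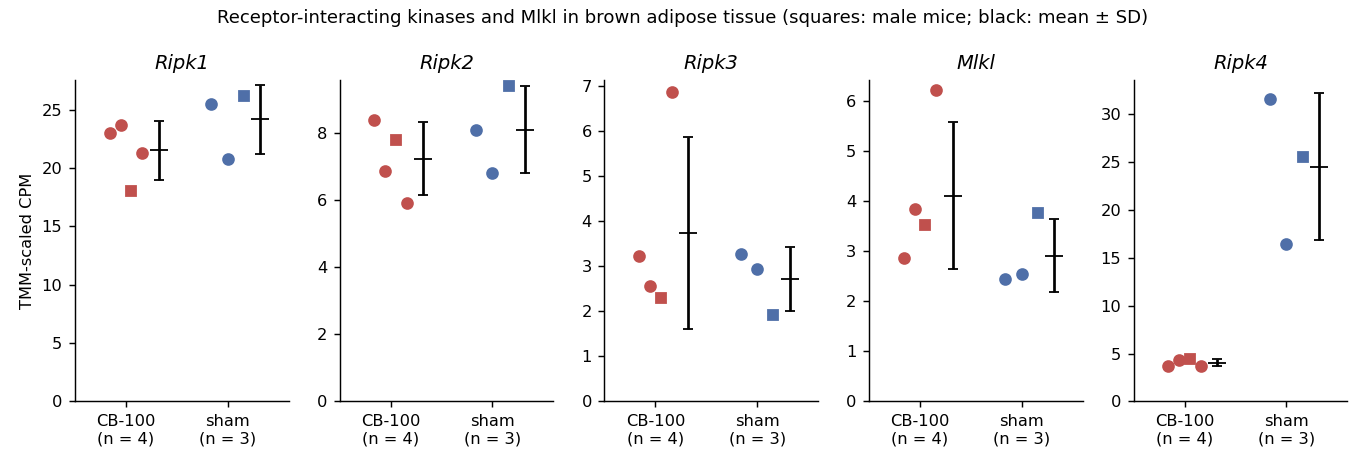
TMM-scaled CPM (linear axis from 0, a separate scale in each panel) of Ripk1, Ripk2, Ripk3, Mlkl and Ripk4 in the 4 CB-100 and 3 sham libraries; each point is 1 mouse, squares are males, and the black bars give the mean ± SD. Ripk4 lay between 3.72 and 4.46 CPM in CB-100 and between 16.4 and 31.6 CPM in sham, and for the other 4 genes the groups overlapped.

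The RefSeq promoter table for GRCm38.p6 held entries for 3 of the 5 genes, Ripk1 with 2 transcription starts and Ripk3 and Mlkl with 1 each. Ripk2 and Ripk4 had none. The windows below run from 250 bases before the annotated start to 30 bases after it, 5′ to 3′ on the strand of the gene. They are shown because Ripk1, Ripk3 and Mlkl form the necroptosis axis and because interferon and TNF signalling, which can induce genes of cell death, act through short promoter motifs. On both strands of the full windows, which run somewhat further than printed, 2 motifs were searched: the interferon response type (GAAA, any 2 bases, GAAA) and the NF-kappaB type (GGG, any 2 bases, TTTCC). Among 32851 promoter windows of the same length the interferon response type was found in 3.44% and the NF-kappaB type in 1.63%. Capitals mark the match.
Ripk1 second start, chr13:34002624-34002903, plus strand: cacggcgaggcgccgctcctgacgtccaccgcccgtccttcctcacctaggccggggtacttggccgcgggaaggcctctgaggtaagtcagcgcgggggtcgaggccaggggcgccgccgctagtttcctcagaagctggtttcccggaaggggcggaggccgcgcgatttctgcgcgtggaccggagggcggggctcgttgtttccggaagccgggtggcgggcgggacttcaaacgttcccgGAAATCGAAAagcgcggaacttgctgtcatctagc
Ripk3, chr14:55788828-55789107, minus strand: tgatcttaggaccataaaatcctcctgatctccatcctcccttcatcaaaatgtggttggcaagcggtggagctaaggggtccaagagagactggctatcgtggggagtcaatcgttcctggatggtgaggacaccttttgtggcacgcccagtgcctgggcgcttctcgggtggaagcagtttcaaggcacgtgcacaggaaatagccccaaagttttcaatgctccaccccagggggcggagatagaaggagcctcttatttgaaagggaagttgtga
Mlkl, chr8:111338176-111338455, minus strand: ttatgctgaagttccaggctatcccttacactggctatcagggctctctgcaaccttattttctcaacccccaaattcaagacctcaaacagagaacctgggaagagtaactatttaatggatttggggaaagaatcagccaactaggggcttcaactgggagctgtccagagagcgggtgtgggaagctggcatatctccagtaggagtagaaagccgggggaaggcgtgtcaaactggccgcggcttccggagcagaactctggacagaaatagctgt
The second Ripk1 window held the interferon response type at 1 place, on the strand of the gene, with its first base 5 bases before the start. No match of the NF-kappaB type was found in it, and no match of either motif was found in the Ripk3 and Mlkl windows or around the first Ripk1 start, which says only that these letters are not in those windows. The match is a description of sequence and not of binding.

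Ripk1, the scaffold and kinase at the TNF receptor (ENSMUSG00000021408), lies on the plus strand of chromosome 13 from 34002363 to 34037147 in GRCm38, with 5 annotated transcripts. It stood at 23.0, 23.7, 18.0 and 21.3 CPM in the 4 CB-100 libraries and at 25.5, 20.8 and 26.2 CPM in the 3 sham libraries. The ranges overlapped: the lowest value was that of the CB-100 male, and the highest that of the sham male. The means were 21.5 ± 2.51 CPM in CB-100 (SD, n = 4) and 24.2 ± 2.92 CPM in sham (SD, n = 3), a log2 change of -0.17 with a standard error (SE) of 0.15. Ripk1 counts were not whole in 7 of 7 libraries, and its exons share 241 bases with those of Serpinb6a on the opposite strand and 511 bases with those of the pseudogene Gm17084 on the same strand, 2.89% and 6.12% of the Ripk1 exon bases. Part of its counts may therefore belong to these genes, and its level is uncertain to that extent. Serpinb6a, a protease inhibitor gene, stood at 22.5 ± 8.78 CPM in CB-100 (SD, n = 4) and 19.0 ± 3.02 CPM in sham (SD, n = 3), and Gm17084 at 0.783 ± 0.317 CPM in CB-100, against 0.193 ± 0.176 CPM in sham.

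Ripk2, the adaptor kinase of Nod1 and Nod2 (ENSMUSG00000041135), lies on the minus strand of chromosome 4 from 16122733 to 16163647. It had 8.37, 6.85, 7.77 and 5.91 CPM in CB-100 libraries, against 8.07, 6.80 and 9.40 CPM in sham libraries. The highest value belonged to the sham male and the lowest to CB-100 replicate 4, with the other 5 mice between them in no order by group. Means of 7.22 ± 1.08 CPM in CB-100 (SD, n = 4) and 8.09 ± 1.30 CPM in sham (SD, n = 3) gave a log2 change of -0.17 (SE 0.20). The ratio of Ripk2 to Ripk1 counts within a library, which does not depend on scaling, was 0.340 ± 0.0710 in CB-100 and 0.334 ± 0.0225 in sham (SD, n = 4 and 3), a difference smaller than the SD of either group. A micro-RNA gene model, Gm22690, lies within Ripk2 without touching its exons.

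Ripk3, the kinase that activates Mlkl (ENSMUSG00000022221), is a compact gene on the minus strand of chromosome 14 from 55784995 to 55788865, overlapped by no other gene. CB-100 libraries had 3.22, 2.56, 2.30 and 6.88 CPM and sham libraries 3.28, 2.95 and 1.93 CPM. One mouse, CB-100 replicate 4, stood at 6.88 CPM, and the other 6 lay between 1.93 and 3.28 CPM with the groups intermixed. The means were 3.74 ± 2.13 CPM in CB-100 (SD, n = 4) and 2.72 ± 0.706 CPM in sham (SD, n = 3), a log2 change of 0.48 (SE 0.42). Without CB-100 replicate 4 the log2 change was -0.01. These levels rested on 28 to 148 counts per library in CB-100 and 41 to 63 in sham. Counting error alone would give a coefficient of variation (CV) of 14.9% in CB-100 and 14.5% in sham, while the observed CV was 57.0% in CB-100 and 26.0% in sham. Without CB-100 replicate 4, an alternative chosen after seeing the data, the 3 other CB-100 mice averaged 2.69 ± 0.474 CPM, with an observed CV of 17.6% beside 17.2% from counting.

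Mlkl, the pseudokinase that carries out necroptosis (ENSMUSG00000012519), lies on the minus strand of chromosome 8 from 111311797 to 111338177. The 4 CB-100 libraries had 2.86, 3.84, 3.52 and 6.23 CPM, and the 3 sham libraries 2.45, 2.54 and 3.76 CPM. Here too CB-100 replicate 4 was highest, and the sham male lay among the CB-100 mice. Mean levels were 4.11 ± 1.47 CPM in CB-100 (SD, n = 4) and 2.92 ± 0.732 CPM in sham (SD, n = 3), with a log2 change of 0.50 (SE 0.32). It was 0.22 without CB-100 replicate 4. In the females Mlkl averaged 4.31 CPM in 3 CB-100 mice and 2.49 CPM in 2 sham mice, a ratio of 1.73 that was 1.34 without CB-100 replicate 4, when 2 CB-100 females averaged 3.35 CPM, while the CB-100 male had 3.52 CPM and the sham male 3.76 CPM. Counts per library were 40 to 134 in CB-100 and 37 to 80 in sham.

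Ripk3 and its substrate Mlkl were also compared within each library. The ratio of Mlkl to Ripk3 counts was 0.889, 1.50, 1.53 and 0.905 in CB-100 libraries and 0.746, 0.860 and 1.95 in sham libraries. The averages, 1.21 ± 0.357 in CB-100 (SD, n = 4) and 1.19 ± 0.665 in sham (SD, n = 3), differed by less than the spread of either group, and the male of each group had the highest ratio in it. Pearson's r of log2 CPM between Ripk3 and Mlkl over the 7 libraries was 0.51, and 0.43 for deviations from the group means, but -0.84 over the 6 libraries without CB-100 replicate 4, so its sign rests on that library. For Ripk2 and Ripk3 r was -0.73 over the 7 libraries and -0.70 within groups, and -0.37 without CB-100 replicate 4. These coefficients are descriptions over libraries that share scaling.

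CB-100 replicate 4 stood apart for endothelial genes as well. The 12 endothelial markers summed to 998, 1100, 1180 and 2100 CPM in CB-100 replicates 1 to 4 and to 1330, 891 and 800 CPM in sham replicates 1 to 3, with Kdr, a receptor of vascular endothelial growth factor, highest among them. None of the 12 passed edgeR's test between the groups (3 had an unadjusted p under 0.05), DESeq2 and limma voom each called 1, Egfl7, and their median log2 change was 0.46. The Ripk3 level was highest in the library where this sum was highest, and lowest in the library where it was lowest. Sham replicate 1 came next to the highest in both. Among the remaining libraries the orders differed. Sham replicate 2 had a sum of 891 CPM and 2.95 CPM of Ripk3, and CB-100 replicate 3 had 1180 CPM and 2.30 CPM. The part of endothelial cells in the Ripk3 values was not tested. In bulk tissue, fewer cells of a type and less RNA per cell cannot be told apart. Adcy4, an adenylate cyclase gene 0.90 kb from Ripk3 that was picked for its position after its values were seen, had 18.6, 33.3, 26.5 and 69.4 CPM in CB-100, against 28.2, 28.4 and 18.5 CPM in sham, also with its highest value in CB-100 replicate 4.

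Ripk4, the ankyrin repeat kinase of epithelial differentiation (ENSMUSG00000005251), lies on the minus strand of chromosome 16 from 97741933 to 97763787, with 1 annotated transcript in 8 exon blocks. No other gene overlaps it and its counts were whole in each library. Its level was 3.72, 4.29, 4.46 and 3.72 CPM in the 4 CB-100 libraries and 31.6, 16.4 and 25.5 CPM in the 3 sham libraries. The CB-100 mice lay close to each other, and the lowest sham mouse, replicate 2, was well above all of them. Averages of 4.05 ± 0.384 CPM in CB-100 (SD, n = 4) and 24.5 ± 7.65 CPM in sham (SD, n = 3) gave a log2 change of -2.60 (SE 0.23), a level 6.06-fold lower in CB-100. The raw counts behind these levels were 52, 47, 62 and 80 in CB-100 and 606, 238 and 543 in sham.

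In CB-100 the CV of Ripk4 among mice was 9.49%, below the 13.1% that counting error alone would give, whereas in sham the CV was 31.3% against 4.95% from counting. The difference in spread between the groups was not tested. Within-group SDs of log2 CPM, taken over both groups, were 0.32 for Ripk4, 0.59 for Ripk3, 0.41 for Mlkl, 0.22 for Ripk2 and 0.18 for Ripk1. By edgeR's estimate the CV between replicates was 38.7% for Ripk3, against a median of 29.1% for 2021 genes of like level, and 23.6% for Ripk4, against 20.8% for 2501 such genes.

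Ratios that do not depend on scaling, and each sex alone, gave Ripk4 differences of like size. They and the alternatives below use the same counts by which Ripk4 was chosen, so they describe the difference and give no separate evidence for it. The ratio of Ripk4 to Ripk1 counts was 0.162, 0.182, 0.247 and 0.175 in CB-100 libraries and 1.24, 0.784 and 0.976 in sham libraries, with means of 0.191 ± 0.0381 in CB-100 and 0.999 ± 0.227 in sham (SD, n = 4 and 3). Of all counts on the 5 genes, Ripk4 took 8.45% to 12.3% in CB-100 and 33.0% to 44.5% in sham, while Ripk1 took 48.4% to 57.4% in CB-100 and 36.0% to 42.1% in sham. Female mice had 3.91 CPM of Ripk4 in CB-100 (n = 3) and 24.0 CPM in sham (n = 2), 6.12-fold more in sham. The males, 1 in each group, had 4.46 CPM in CB-100, against 25.5 CPM in sham, 5.73-fold more in sham. Across 16 other ways of processing or leaving out samples the log2 change of Ripk4 ran from -2.82 to -2.38, as the plot of changes by setting shows.

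**Figure D2:**
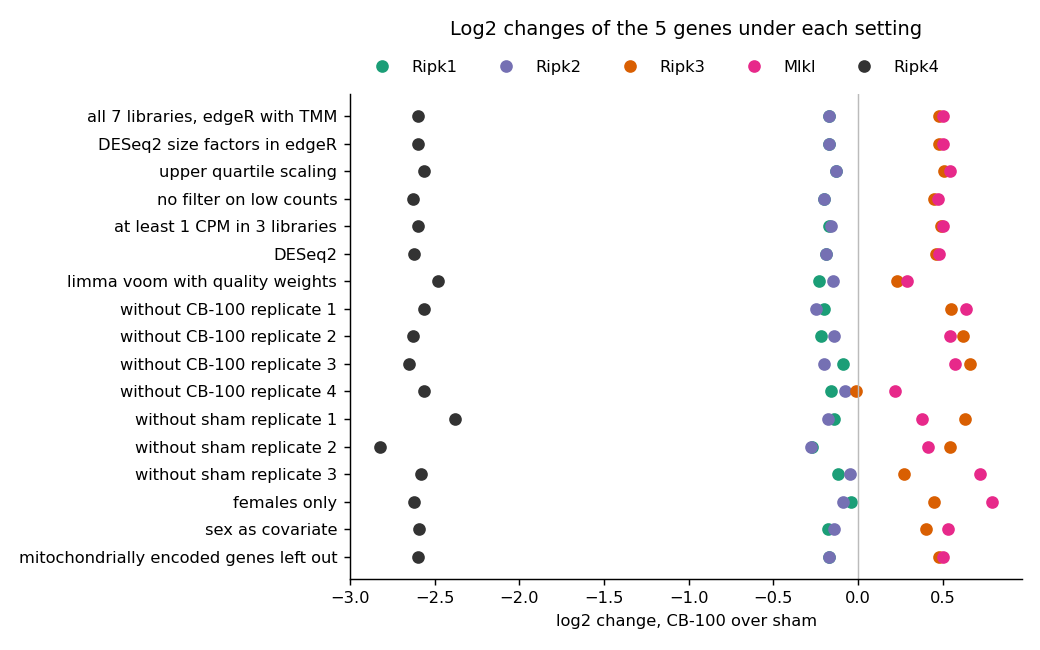
Log2 change of the 5 genes, CB-100 over sham (x axis), under the setting used in the text (top line) and 16 alternatives (y axis); each point is 1 gene, with no error bars. Ripk4 stayed between -2.82 and -2.38, Ripk1 and Ripk2 between -0.28 and -0.04, and Ripk3 came to -0.01 without CB-100 replicate 4.

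Compared per length of exon, the 5 genes changed order with the group. The levels in CPM per kilobase were, in CB-100, 2.58 ± 0.301 for Ripk1, 2.57 ± 0.383 for Ripk2, 1.79 ± 0.638 for Mlkl, 1.63 ± 0.930 for Ripk3 and 1.13 ± 0.107 for Ripk4 (SD, n = 4 each). In sham they were 6.82 ± 2.13 for Ripk4, 2.90 ± 0.350 for Ripk1, 2.87 ± 0.462 for Ripk2, 1.27 ± 0.318 for Mlkl and 1.19 ± 0.308 for Ripk3 (SD, n = 3 each). By this measure Ripk4 was thus the lowest of the 5 in CB-100 and the highest in sham. Ripk1 and Ripk2 did not differ beyond their spread in either group, nor did Ripk3 and Mlkl. In CB-100 the 4 neighbours in the order from Ripk2 down to Ripk4 overlapped in range, with Ripk4 at 1.04 to 1.24, Ripk3 at 1.0 to 3.0, Mlkl at 1.24 to 2.71 and Ripk2 at 2.10 to 2.97. In sham Ripk4, at 4.55 to 8.79, lay above Ripk1, at 2.49 to 3.14, and Ripk2, at 2.42 to 3.34, lay above Mlkl, at 1.06 to 1.63. Among 13342 protein-coding genes tested, Ripk4 was at percentile 22.1 per length in CB-100 and 70.1 in sham, whereas Ripk1 was at 40.9 in CB-100 and 44.8 in sham and Ripk2 at 40.8 in CB-100 and 44.6 in sham. Mlkl was at percentile 31.7 in CB-100 and 26.0 in sham, and Ripk3 at 29.7 in CB-100 and 24.9 in sham. The length used merges all annotated exons of a gene: 8344 bases over 5 transcripts for Ripk1, 3591 bases over 1 transcript for Ripk4. This can set a gene with several transcripts too low, so the order between genes is uncertain. In CPM without length, Ripk4 and Ripk1 were alike in sham, at 24.5 ± 7.65 and 24.2 ± 2.92. In CB-100 Ripk4, at 4.05 ± 0.384, was then near Ripk3, at 3.74 ± 2.13.

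**Figure D3:**
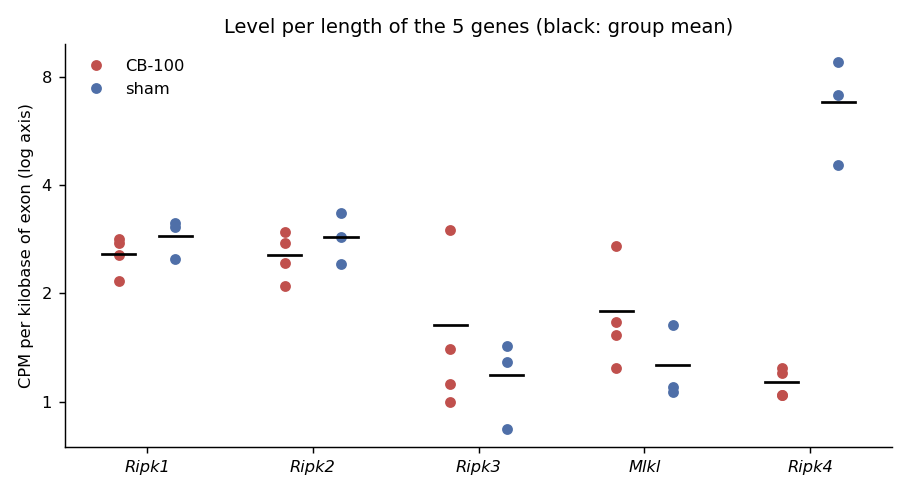
Level per kilobase of exon (TMM-scaled CPM per kilobase, log axis) of the 5 genes in each of the 4 CB-100 and 3 sham libraries; points are mice and black lines group means. Ripk4 averaged 1.13 in CB-100, the lowest of the 5, and 6.82 in sham, the highest. Exon length merges all annotated exons of a gene, so the order between genes is uncertain.

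Because Ripk4 is best known from epithelia, epithelial markers were read beside it. The 20 keratinocyte and epithelial markers summed to 14.5, 33.8, 10.1 and 86.3 CPM in CB-100 replicates 1 to 4 and to 13.1, 58.7 and 14.4 CPM in sham replicates 1 to 3. Their order was not that of Ripk4: CB-100 replicate 4, with the highest sum, had 3.72 CPM of Ripk4, and sham replicate 1, with the highest Ripk4 level of 31.6 CPM, had one of the lowest sums. Of the 20 markers 14 were tested and none passed edgeR's test (1 at an unadjusted p under 0.05), nor did DESeq2 or limma voom call any, and their median log2 change was 0.65. No marker was at 0 in every library. Ivl, a late differentiation protein of keratinocytes, had 1 count in sham replicate 2 and none elsewhere. Krt19, a keratin of simple epithelia, had the highest mean, 4.25 CPM in CB-100, against 4.96 CPM in sham. Skeletal muscle markers summed to 244 to 1870 CPM in CB-100 and 710 to 1570 CPM in sham, macrophage markers to 142 to 301 CPM in CB-100 and 166 to 235 CPM in sham, and lymphocyte markers to 19.2 to 25.6 CPM in CB-100 and 12.9 to 20 CPM in sham. The 10 mammary and salivary gland markers summed to 40.9 to 77.3 CPM in CB-100 and 65.8 to 91.6 CPM in sham, with Smr3a, Prol1 and Krt76 at 0 in every library. Amy1 was highest, and without it the sums were 0.216 to 14.1 CPM in CB-100 and 0.564 to 6.53 CPM in sham, highest in CB-100 replicate 4 and in sham replicate 2, the libraries with the highest epithelial sums. Csn2, a milk protein gene, had 6.56 CPM in CB-100 replicate 4 and no count elsewhere. The 12 brown adipocyte markers, with Fabp4 highest, were present in every library and summed to 4470 to 8670 CPM in CB-100 and 5230 to 8660 CPM in sham. Without Fabp4 the sums were 3080 to 5600 CPM in CB-100 and 2540 to 4730 CPM in sham. These sums do not show single markers, of which 2 were higher and 1 lower at an unadjusted edgeR p under 0.05. Of these 5 lists edgeR called no gene (at an unadjusted p under 0.05 there were 3 brown adipocyte, 3 lymphocyte and 1 gland marker), and DESeq2 and limma voom each called 1, Adipoq, lower in CB-100. Their part in the values of the 5 genes was not tested.

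**Figure D4:**
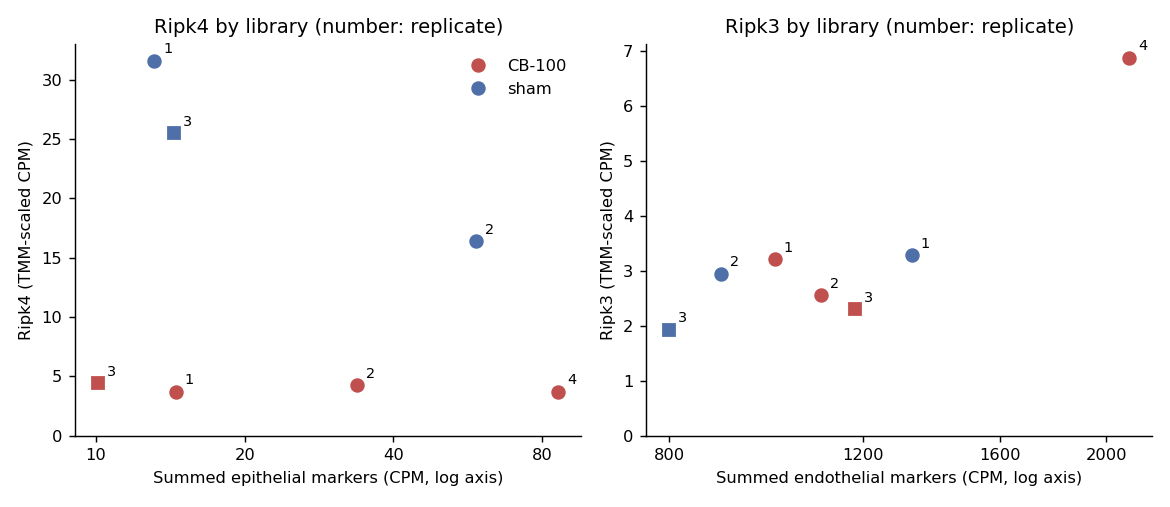
Left, Ripk4 (TMM-scaled CPM, y axis) against the summed CPM of 20 epithelial markers (log x axis); right, Ripk3 against the summed CPM of 12 endothelial markers (log x axis); each point is 1 library with its replicate number, squares are males. CB-100 replicate 4 had the highest sum in both panels, with 3.72 CPM of Ripk4 and 6.88 CPM of Ripk3.

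The genes whose pattern was most like that of Ripk4 were sought among 12751 protein-coding genes with a mean of at least 1 CPM, by Pearson's r of log2 CPM. Over the 7 libraries the nearest were Eif2s1 (r = 0.997), Naa25 (0.994), Rack1 (0.991), Zfp639 (0.989) and Ate1 (0.989). Eif2s1, the alpha subunit of the translation initiation factor eIF2, had 20.1 ± 0.523 CPM in CB-100 (SD, n = 4) and 33.8 ± 4.36 CPM in sham (SD, n = 3). Rack1, a scaffold protein of the small ribosomal subunit, had 111 ± 5.48 CPM in CB-100, against 209 ± 21.1 CPM in sham. Over 7 libraries in 2 groups such values mostly follow the group difference, so r was also taken over deviations from the group means. There the nearest were Eif2s1 again (0.992), Nup214 (0.987), Ikzf5 (0.987), Fryl (0.980) and the interferon gamma receptor gene Ifngr1 (0.979), which had 64.7 ± 6.31 CPM in CB-100, against 132 ± 39.5 CPM in sham (SD, n = 4 and 3). With so many candidates and 7 points, high values arise easily and no p is given. Counts of Naa25, Nup214 and Ikzf5 were not whole in 7 libraries and those of Zfp639 in 4. All of these genes overlap other gene models, so their values are uncertain.

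Each of the other 4 genes had nearest patterns of its own. Ripk1 was nearest to Rheb (r = 0.977) and Sidt2 (0.976) over the libraries, and to Sidt2 (0.989) and Mplkip (0.982) within groups. Ripk2 was nearest to Cacul1 (0.984) and Fam53a (0.981), and within groups to Cyld (0.989), a deubiquitinase of TNF and NOD2 complexes, and Cacul1 (0.989). Cyld had 33.2 ± 2.58 CPM in CB-100 (SD, n = 4) and 33.2 ± 2.52 CPM in sham (SD, n = 3). Ripk3 was nearest to Arhgap10 (0.993) and Higd1b (0.985), and within groups to Hey1 (0.995), a Notch target, and Arhgap10 (0.993). Like Ripk3, Higd1b and Hey1 stood far higher in CB-100 replicate 4 than in the other CB-100 libraries, and no r without that library was taken. Mlkl was nearest to Arrdc4 (0.977) and Flt3l (0.970), and within groups to Fam227a (0.995) and Psenen (0.992). Sidt2, Arhgap10 and Psenen overlap other gene models and had counts that were not whole in 7 libraries, so their values are uncertain.

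Genes next to Ripk4 on chromosome 16 were picked for their position after their values were seen. Prdm15, 27.7 kb away, had 14.0, 11.1, 9.06 and 14.3 CPM in CB-100, against 12.7, 12.4 and 13.6 CPM in sham, a log2 change of -0.09 (SE 0.19). C2cd2, 91.4 kb away, had a log2 change of 0.50 (SE 0.15, adjusted p = 0.086 by edgeR's quasi-likelihood test with BH adjustment). On the other side Bace2, 299 kb away, had a log2 change of 0.62 (SE 0.33), and Tmprss2, a protease gene of epithelia 131 kb away, had 0.501, 1.55, 0.144 and 3.12 CPM in CB-100, against 0.0521, 3.78 and 0.752 CPM in sham. Its 2 highest libraries, CB-100 replicate 4 and sham replicate 2, were those with the highest epithelial sums.

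The genes that work with the 5 described were read as 8 lists of 133 genes, of which 121 were tested. Of the 121, 4 were higher and 2 lower in CB-100 with an adjusted p under 0.05 (edgeR, quasi-likelihood, BH), which is 4.96%, near the 3.70% of all genes. Their median log2 change was 0.13, beside 0.03 over all genes, and 76 estimates were above 0. In the 5 females alone edgeR called 0 genes (2578 of all tested were at an unadjusted p under 0.05), and the 6 had adjusted p of 0.14 (Lrrk2) to 0.25 (Tnfrsf21 and Peli1) there. With sex as a covariate Bcl3 and Lrrk2 passed and the other 4 did not. The lists leave out the 5 genes described. Of the list genes named below, Ikbke, Dvl3, Lrrk1, Dstyk, Casp8 and Fadd overlap other gene models, as do those marked one by one, and their counts are uncertain where reads are shared.

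In TNF receptor signalling, where Ripk1 acts, none of 25 tested genes passed (4 at an unadjusted p under 0.05, and none by DESeq2 or limma voom), and the median log2 change was 0.17. The smallest p belonged to Rbck1, a subunit of the linear ubiquitin ligase that modifies Ripk1, with 66.2 ± 8.68 CPM in CB-100 (SD, n = 4) and 47.9 ± 2.51 CPM in sham (SD, n = 3), a log2 change of 0.47 (SE 0.14). Ikbke, a kinase related to the IkappaB kinases, followed with 4.51 ± 2.91 CPM in CB-100, against 1.78 ± 0.279 CPM in sham (log2 change 1.32, SE 0.47). Without CB-100 replicate 2, at 8.68 CPM, the log2 change of Ikbke was 0.81. The TNF receptor gene Tnfrsf1a, named for its role after its values were seen, had 77.8 ± 4.01 CPM in CB-100, against 62.6 ± 3.49 CPM in sham (log2 change 0.32, SE 0.12, adjusted p = 0.16 by edgeR's quasi-likelihood test with BH adjustment). Tnf and Lta, the ligands, had too few counts to be tested.

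Among 12 tested genes of the death receptors and the caspase-8 complex, which Ripk1 and Ripk3 can join, 1 was higher and none lower, and the median log2 change was 0.17. It was Tnfrsf21, a death domain receptor, at 28.2 ± 2.11 CPM in CB-100 (SD, n = 4) and 18.3 ± 0.892 CPM in sham (SD, n = 3), a log2 change of 0.63 (SE 0.13, edgeR BH-adjusted p = 0.038). With any 1 library left out Tnfrsf21 no longer passed (log2 change 0.60 to 0.68, edgeR adjusted p from 0.05 to 0.16), nor did it with sex as a covariate (0.63, edgeR adjusted p = 0.066) or without a filter on low counts (0.60, edgeR adjusted p = 0.063). Casp8 and Fadd, the core of the complex that restrains necroptosis, were named for their role after their values were seen. Casp8 had 14.2, 17, 11.9 and 30.9 CPM in CB-100, against 17, 17.2 and 13.9 CPM in sham, and its highest library was again CB-100 replicate 4. Fadd had 8.08 ± 1.01 CPM in CB-100, against 7.44 ± 0.669 CPM in sham (log2 change 0.12, SE 0.18).

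Of 19 necroptosis partners, all tested, none was higher and 1 was lower, with a median log2 change of -0.00. At an unadjusted edgeR p under 0.05 there were 1 higher and 3 lower. DESeq2 and limma voom each called 2 lower, Chmp2a and Peli1. Chmp2a had 21.3 ± 6.98 CPM in CB-100, against 36.3 ± 3.50 CPM in sham (log2 change -0.77, SE 0.23). Peli1, a ubiquitin ligase that acts on Ripk1 and Ripk3, had 15.7 ± 2.02 CPM in CB-100 (SD, n = 4) and 30.5 ± 9.23 CPM in sham (SD, n = 3), a log2 change of -0.96 (SE 0.22, edgeR BH-adjusted p = 0.049). Peli1 passed without sham replicate 2, and without any other single library it did not (log2 change -1.03 to -0.83, edgeR adjusted p from 0.071 to 0.18), nor with sex as a covariate (-0.93, edgeR adjusted p = 0.071) or upper quartile scaling (-0.92, edgeR adjusted p = 0.054). Another gene model overlaps Peli1, so the counts of Peli1 are uncertain. Zbp1, the nucleic acid sensor that can engage Ripk3 without Ripk1, was named for its role after its values were seen and had 0.773 ± 0.0944 CPM in CB-100, against 0.443 ± 0.212 CPM in sham, on 6 to 16 counts per library (log2 change 0.82, SE 0.43).

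In NOD1 and NOD2 signalling, the route of Ripk2, 1 of 15 tested genes was lower, none was higher, and the median log2 change was 0.05. This was Slc15a4, a transporter of bacterial peptides in endolysosomes, with 13.2 ± 1.81 CPM in CB-100 (SD, n = 4) and 25.9 ± 5.82 CPM in sham (SD, n = 3), a log2 change of -0.98 (SE 0.19, edgeR BH-adjusted p = 0.035). It did not pass without CB-100 replicate 1, 2 or 3 or sham replicate 1 or 3 (log2 change -1.03 to -0.88, edgeR adjusted p from 0.063 to 0.14), nor with sex as a covariate (-0.96, edgeR adjusted p = 0.054). Slc15a4 counts were not whole in 5 libraries and the gene overlaps Glt1d1, so its level is uncertain. The sensors, named for their role after their values were seen, did not pass: Nod1 had 36.9 ± 5.28 CPM in CB-100, against 26.1 ± 3.73 CPM in sham (log2 change 0.50, SE 0.16), and Nod2 had 3.65 ± 0.973 CPM in CB-100, against 2.45 ± 0.758 CPM in sham (log2 change 0.56, SE 0.33).

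NF-kappaB factors and their feedback targets, downstream of Ripk1 and Ripk2, had 2 higher and no lower among 17 tested genes, with a median log2 change of 0.31. At an unadjusted edgeR p under 0.05 there were 3 higher and 1 lower. The lower one was Nfkbia, with 27.4 ± 6.63 CPM in CB-100 (SD, n = 4) and 57.5 ± 38.8 CPM in sham (SD, n = 3). Its log2 change was -1.07 (SE 0.40), its groups overlapped, and sham replicate 1 stood at 101 CPM. Bcl3, a nuclear IkappaB-family cofactor, had 18.0, 17.9, 14.5 and 11.5 CPM in CB-100, against 5.15, 6.87 and 3.57 CPM in sham, a log2 change of 1.58 (SE 0.26, edgeR BH-adjusted p = 0.027). Bcl3 did not pass without CB-100 replicate 1, 2 or 3 or sham replicate 1 or 3 (log2 change 1.35 to 1.6, edgeR adjusted p of 0.05 to 0.12). Overlapping gene models make the counts of Bcl3 uncertain. Traf1, an adaptor of TNF-family receptors, had 2.58, 3.84, 2.30 and 2.37 CPM in CB-100, against 0.989, 0.893 and 0.752 CPM in sham, a log2 change of 1.64 (SE 0.32, edgeR BH-adjusted p = 0.035). Traf1 passed without CB-100 replicate 4, and without any other single library it did not (log2 change 1.46 to 1.73, edgeR adjusted p of 0.057 to 0.14), nor with sex as a covariate (1.61, edgeR adjusted p = 0.054). For both genes all 4 CB-100 values exceeded all 3 sham values. Ccl2, Cxcl1 and Il6 had too few counts to be tested.

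None of 13 tested Ripk4 partners passed (2 at an unadjusted p under 0.05, and none by DESeq2 or limma voom), and the median log2 change was 0.35. The smallest p belonged to Dvl3, an adaptor of Wnt signalling, with a log2 change of 0.35 (SE 0.13), and to Sfn, an epithelial 14-3-3 protein, with 0.89 (SE 0.39). Grhl3, Pkp1 and Elf3, epithelial genes of the same list, had too few counts to be tested.

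Of 17 tested genes of other death routes none passed edgeR's test (3 had an unadjusted p under 0.05, all lower), while DESeq2 and limma voom each called 1, Ninj1, and the median log2 change was 0.05. Ninj1, which ruptures the plasma membrane in lytic death, had 39.1, 47.5, 41.0 and 20.9 CPM in CB-100, against 72.4, 75.5 and 74.0 CPM in sham, a log2 change of -1.0 (SE 0.24, adjusted p = 0.054 by edgeR's quasi-likelihood test with BH adjustment). Its groups did not overlap, and CB-100 replicate 4 was the lowest. Without that library Ninj1 passed, at a log2 change of -0.80 and an edgeR adjusted p of 0.029. Bcl2l1, an inhibitor of apoptosis, had 48.5 ± 8.35 CPM in CB-100 (SD, n = 4) and 84.3 ± 39.9 CPM in sham (SD, n = 3), with sham replicate 1 at 130 CPM (log2 change -0.80, SE 0.28, and -0.35 without that library).

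The other kinases of the family were Dstyk, Lrrk1, Lrrk2 and Ankk1, of which 3 were tested and 1, Lrrk2, was higher. Lrrk2, a leucine-rich repeat kinase studied for its mutations in Parkinson's disease, had 17.7, 22.6, 20.9 and 23.9 CPM in CB-100, against 8.07, 9.14 and 10.3 CPM in sham. The groups were apart, with a log2 change of 1.21 (SE 0.17, edgeR BH-adjusted p = 0.020), 2.32-fold higher in CB-100. Lrrk2 did not pass without CB-100 replicate 2, sham replicate 1 or sham replicate 3 (log2 change 1.12 to 1.30, edgeR adjusted p of 0.055 to 0.094). Its relative Lrrk1 had 25.1 ± 4.68 CPM in CB-100 (SD, n = 4) and 17.2 ± 1.70 CPM in sham (SD, n = 3), a log2 change of 0.55 (SE 0.18, adjusted p = 0.11 by edgeR's quasi-likelihood test with BH adjustment). Dstyk had 30.7 ± 2.26 CPM in CB-100, against 30 ± 4.45 CPM in sham, with counts that were not whole in 7 libraries. Ankk1, which like Ripk4 carries ankyrin repeats, had 1 count in CB-100 replicate 4 and none elsewhere.

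**Figure D5:**
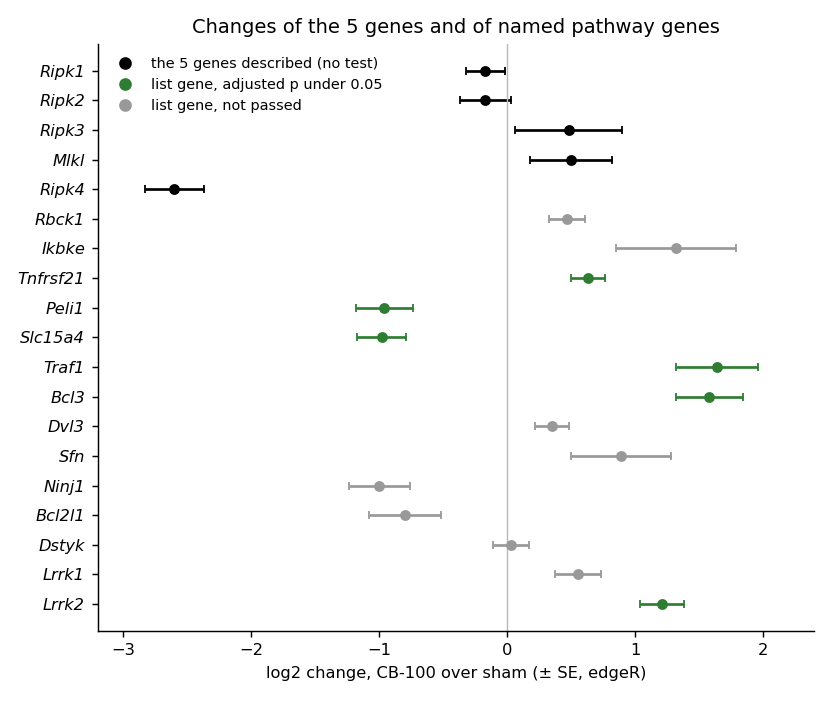
Log2 change, CB-100 over sham, with its SE from edgeR (x axis) for the 5 genes (black, no test) and for the pathway genes named by rule (green past an adjusted p of 0.05, grey not past it). Ripk4, chosen by this comparison, was at -2.60, and the pathway genes shown ran from -1.0 (Ninj1) to 1.64 (Traf1).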

How the data were processed

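RNA of brown adipose tissue from 7 mice (4 CB-100, 3 sham) was sequenced on an Illumina instrument. The labels' protocols name STAR 2.7.9a as aligner and the primary assembly of Ensembl release 101 as its target. The submitters' processing notes add featureCounts 2.0.3, Salmon 1.5.2, edgeR and limma without saying what each did. For library kit, strandedness and counting options, the sources used here give nothing. The deposited values are the authors' expected counts for each gene, without normalization and with up to 2 decimals. Reads shared by overlapping or near-identical genes can be divided between them, which is where non-whole values can arise.

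Of 55774 lines, 287 repeated a gene and were removed. Expected counts were rounded to whole numbers, filtered by filterByExpr, scaled by TMM and fitted with edgeR 4.0.16 in R 4.3.3 (estimateDisp and glmQLFit, robust; glmQLFTest) on the group alone. Two-sided p-values were BH-adjusted over the 16823 genes tested. The SE of a log2 change is its size over the square root of F. CPM use TMM-scaled totals, and log2 CPM a prior count of 2. Alternatives used DESeq2 1.42.0 and limma 3.58.1, other scalings and filters, each library left out, females only, and sex as a covariate. Coordinates, exon lengths and overlaps come from GENCODE M21 on GRCm38, which matched 99.5% of genes. Promoter windows come from RefSeq on GRCm38.p6, with chromosome 18 left out of the motif shares.

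The 5 genes, the gene lists and the markers were chosen with earlier results of these data known. Some items are not reported here, while counts and medians of lists include them. The rule for naming genes took all 5 genes and all related kinases. From each other list it took up to 4 called genes with the largest change and a mean of at least 1 CPM, or up to 2 with the smallest p where none was called. By likeness it took the 5 genes nearest to Ripk4 and the 2 nearest to each other gene. Replicates carry animal codes that are not shared between groups. The number of mice limits the precision, and for genes with under 100 counts depth limits it too.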

Additional observations from a re-analysis of the deposited data

Results flagged for a closer look

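Among 41 genes whose 4 CB-100 values were checked for a sample far from the others, 2 had one, and chance gives such a gap in about 1 in 20 groups. Both genes were among those most like Ripk3 in pattern, which itself is highest in the same library, so they were picked for a high value there. Higd1b, a gene of pericytes, stood at 5.77 CPM in CB-100 replicate 4 and at 1.01 to 1.57 CPM in the other 3 CB-100 libraries. Hey1, a Notch target of endothelial and other cells, stood at 24.6 CPM in CB-100 replicate 4 and at 3.09 to 5.58 CPM in the other 3.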

How the results depend on the processing

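Each log2 change was recomputed under 16 alternatives. For the 5 genes all 80 values moved by less than the SD within groups: Ripk4 from -2.82 (without sham replicate 2) to -2.38 (without sham replicate 1), Ripk1 from -0.27 to -0.04, Ripk2 from -0.28 to -0.05, Ripk3 from -0.01 (without CB-100 replicate 4) to 0.66, and Mlkl from 0.22 (without CB-100 replicate 4) to 0.79 (females only). For Ripk3 this bound is wide, as its SD of 0.59 includes CB-100 replicate 4. Its move from 0.48 to -0.01 without that library falls within the bound and is no sign of stability. In females only Ripk4 was at -2.62, while edgeR called 0 genes there (2578 at an unadjusted p under 0.05). The number of genes called, 622 of 16823, was 1213 by limma voom and 238 with sex as covariate among the same number of genes. DESeq2 was run without the filter, on 31875 genes, and called 1826. Without the filter edgeR called 914 of 31875. Leaving out 1 library gave 8 to 610: 97, 24, 187 and 610 without CB-100 replicates 1 to 4, and 14, 319 and 8 without sham replicates 1 to 3. The 4 list genes called higher became 0 in females only, 2 with sex as covariate and 0 to 3 on leaving out 1 library. The 2 called lower became 1 with upper quartile scaling, 4 without a filter, 4 by DESeq2, 4 by limma voom, 0 in females only, 0 with sex as covariate and 0 to 3 on leaving out 1 library. Of 16 alternatives, Lrrk2 was called in 12, Bcl3 in 10, Slc15a4 in 9, Traf1 in 8, Peli1 in 7 and Tnfrsf21 in 6. Ninj1 became called in 4. Dstyk, at 0.03, turned to -0.00 without a filter, -0.02 without CB-100 replicate 3 and -0.09 without sham replicate 2. The cause of these moves was not tested. No alternative moved the median of all genes by over 0.1. No paired analysis was possible because the replicate numbers only name samples and the animal codes are not shared between groups. Ripk3 and Mlkl rest on 28 to 148 counts per library, which limits what their values can show.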
